A study of Mus musculus with 12 samples.

Results

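The comparison is between labelled thymocytes of DPASE knockout (KO) mice at 48 h and labelled thymocytes of wild-type (WT) mice at 24 h, which asks whether the later KO cohort looked like the earlier WT cohort in its Tcra repertoire. The members are 4 libraries of the series' 12, chosen by their titles: 2 of KO at 48 h and 2 of WT at 24 h. Both groups were preselection CD4 and CD8 double-positive (DP) thymocytes from mice 4 to 6 weeks old, sorted as CD3e-negative and ZsGreen-positive after 1 mg of tamoxifen. The KO mice were homozygous for the DPASE knockout and the WT mice homozygous for the intact element. All of them carried TcrdCreER, a tamoxifen-activated Cre expressed from a Tcra-Tcrd locus of strain 129 on a C57BL/6J background, and a ZsGreen reporter at Rosa26. The labels give that reporter as Rosa26ZsG/ZsG under strain and as Rosa26ZsG/+ under genotype. WT at 48 h and KO at 24 h, with 2 libraries each, are set beside the pair where they help to place it. Genotype and time differ together between KO at 48 h and WT at 24 h, so their parts in a difference cannot be told apart by this contrast alone.

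The T cell receptor alpha chain is assembled by joining a variable (Trav) segment to a joining (Traj) segment. Early rearrangements in DP cells join the Trav segments nearest to the J array to the 5' Traj segments, where the TEA and Traj49 promoters lie. Later rounds on the same allele replace them with Trav segments farther away and Traj segments closer to the 3' end, so the position of a repertoire on both arrays is read as its progress. DPASE is a regulatory element of the Rag1 and Rag2 locus, which encodes the recombinase that makes these joins. Labelling cells that express Tcrd, a gene transcribed before Tcra rearranges, marks a cohort that can be sampled at a set time afterwards.

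The Traj segments on which the J side turns lie on the plus strand of chromosome 14 and are shown here as reference sequence from GENCODE M21 on GRCm38, a C57BL/6J genome. Capitals mark the first match to TTNGG, any 4 bases and GG, read on the plus strand, a pattern built on the conserved phenylalanine-glycine motif of a J segment. The letters were matched without regard to reading frame and also fit leucine codons, so a match need not encode that motif. Traj56 and Traj53 stand for the 5' segments that were lower in KO at 48 h, Traj42 for the segments that were most alike, Traj23, Traj15 and Traj11 for those that were higher, and Traj2 for the 3' end of the array.
Traj56: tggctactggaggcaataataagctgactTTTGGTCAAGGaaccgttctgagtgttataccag
Traj53: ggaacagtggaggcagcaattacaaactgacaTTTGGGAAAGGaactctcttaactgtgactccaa
Traj42: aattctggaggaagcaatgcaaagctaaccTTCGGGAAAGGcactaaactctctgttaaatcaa
Traj23: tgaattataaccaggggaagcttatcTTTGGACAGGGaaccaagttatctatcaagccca
Traj15: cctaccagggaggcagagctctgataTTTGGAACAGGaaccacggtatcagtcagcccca
Traj11: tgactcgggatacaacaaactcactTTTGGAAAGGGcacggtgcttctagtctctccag
Traj2: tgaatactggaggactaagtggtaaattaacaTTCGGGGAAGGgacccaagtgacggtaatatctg
Traj56 spans chr14:54159263-54159325, Traj42 spans chr14:54175773-54175836, Traj15 spans chr14:54204422-54204481 and Traj2 spans chr14:54217836-54217901. The pattern was found in 42 of the 43 Traj segments, or 97.7% of them, and 6 of these held 2 matches. Traj33 was the segment without these letters. The segments were 57 to 66 bases long.

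Each library is a table of the share taken by every Trav-Traj pair. In KO at 48 h the deposited fractions summed to 0.998 in replicate 1 and 1.98 in replicate 2, and in WT at 24 h they summed to 0.996 and 1.98. The replicate 2 tables at both times and in both genotypes made up the 4 that summed to near 2, so each group holds a table of each type. Pairs at 0 made up 2.88% and 44.8% of all pairs in KO at 48 h, against 7.73% and 42.4% in WT at 24 h. Every table was therefore rescaled to 100% over the 80 Trav segments, of 85 listed in any table, that all 4 libraries list. Sequencing depth is unknown, so no counting interval or detection limit is given. The tables hold Tcra segments alone, so neither the genotype nor the surface markers of the sort can be checked in them. Groups of 2 mice are named in the labels, without saying whether a library stood for a mouse of its own, so the p-values measure the spread between libraries, which may be partly technical. In RNA of sorted cells, fewer cells using a segment and less RNA per cell cannot be told apart.

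**Figure D1:**
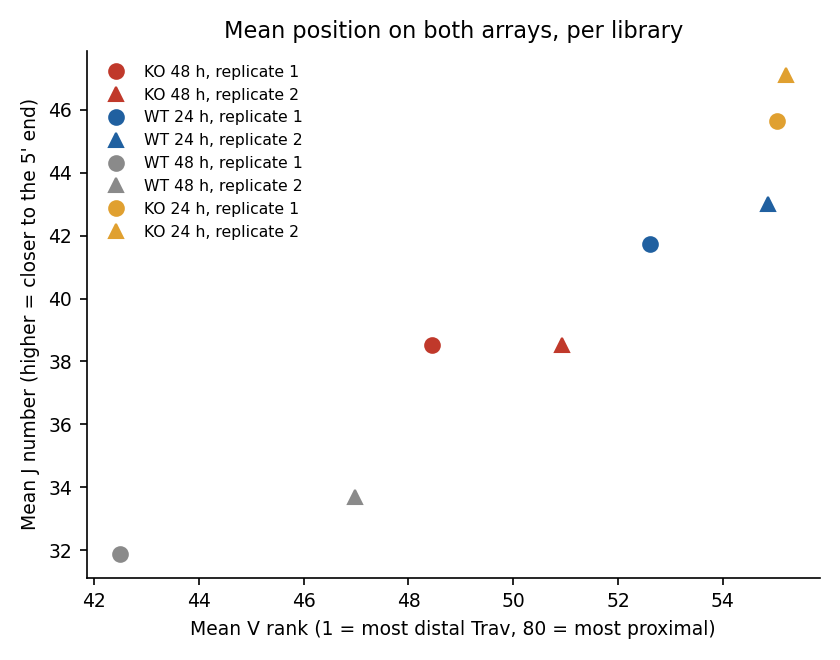
Mean V rank (x axis, 1 for the most distal Trav segment and 80 for the most proximal) and mean J number (y axis, higher towards the 5' end) of 8 libraries, with circles for replicate 1 and triangles for replicate 2. The KO 48 h libraries have mean J numbers of 38.5 and 38.5, below the WT 24 h libraries at 41.7 and 43.0 and above the WT 48 h libraries at 31.9 and 33.7.

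By its mean position on both arrays KO at 48 h lay past WT at 24 h and short of WT at 48 h. The mean J number, the usage-weighted mean of the Traj numbers, was 38.5 and 38.5 in the KO 48 h libraries, against 41.7 and 43.0 in the WT 24 h libraries. It was 31.9 and 33.7 in WT at 48 h, and 45.6 and 47.1 in KO at 24 h. The 4 groups did not overlap, and the order from 5' to 3' was KO at 24 h, WT at 24 h, KO at 48 h and WT at 48 h. The difference between KO at 48 h and WT at 24 h was -3.85 segment numbers, from means of 38.5 ± 0.0148 and 42.4 ± 0.894 (SD, n = 2 each). That is 40.2% of the way from WT at 24 h to WT at 48 h, or 32.6% between the replicate 1 libraries and 48.2% between the replicate 2 libraries. This share and those given for other measures use the WT 24 h libraries in both differences, and they describe these libraries with no test.

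The mean V rank gave the same order. It was 48.5 and 50.9 in KO at 48 h, against 52.6 and 54.9 in WT at 24 h. WT at 48 h had 42.5 and 47.0, and KO at 24 h had 55.0 and 55.2. The KO 48 h libraries thus used Trav segments farther from the J array than either WT 24 h library, by 4.05 ranks on average, which is 45.0% of the step in WT. With 2 libraries against 2, the smallest two-sided p of an exact permutation test is 0.333, so no test was made of such single values.

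The J profile of KO at 48 h differed from that of WT at 24 h at 21 of 43 segments, with less use of 5' segments and more use of middle and 3' segments. Of 43 Traj segments, 16 were higher in KO at 48 h, or 37.2% of those tested, and 5 were lower, or 11.6%, by limma at a Benjamini-Hochberg adjusted p under 0.05. All 5 lower segments lay in the 5' window of 13 segments from Traj58 to Traj42, where none was higher and the median log2 fold change was -0.39. In the middle window of 16 segments from Traj40 to Traj22, 7 were higher and none lower, with a median of 0.39. In the 3' window of 14 segments from Traj21 to Traj2, 9 were higher and none lower, with a median of 0.80. The median over all 43 was 0.30, and 22 segments were not called. With table type as a term in the fit, added after the totals of the tables were seen, the 21 calls stayed and 6 more were made, so that 19 segments were higher, or 44.2%, and 8 were lower, or 18.6%, all 8 in the 5' window. The added calls were Traj58, Traj50 and Traj49, lower, and Traj28, Traj24 and Traj21, higher. When each library was instead centred on the mean log2 share of its segments, the median was -0.01 and the split was 11 higher and 12 lower. The 5' window then had 10 lower, the middle window 3 higher and 1 lower, and the 3' window 8 higher and 1 lower.

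**Figure D2:**
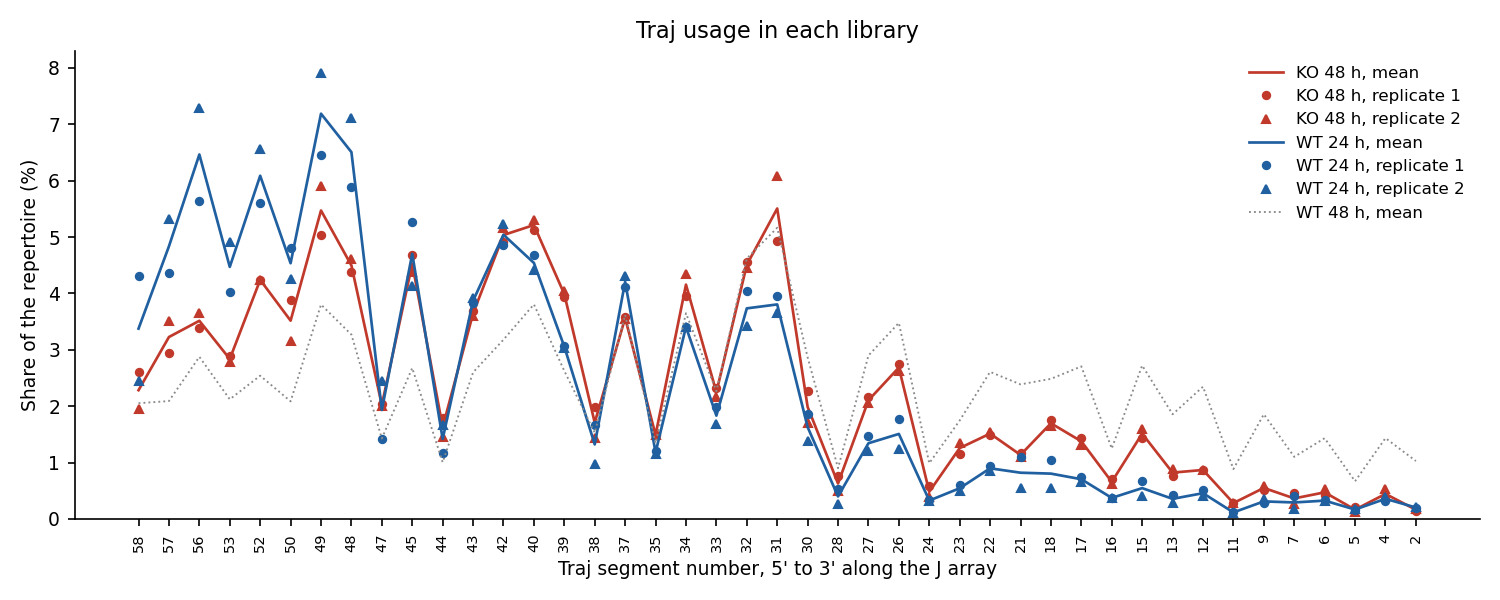
Share of the repertoire (y axis, percent) taken by each Traj segment in 5' to 3' order (x axis), with points for the libraries and lines for group means, KO at 48 h in red, WT at 24 h in blue and the WT 48 h mean dotted. The red line lies below the blue from Traj58 to Traj48, the lines meet at Traj42, and the red line lies above the blue from Traj32 to Traj6.

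The 5' segments served by the TEA promoter, which drives the first rearrangements, included the largest decrease. Traj56 held 3.38% and 3.65% of the repertoire in KO at 48 h, against 5.64% and 7.29% in WT at 24 h. Both KO libraries were below both WT libraries, and the log2 fold change was -0.87 ± 0.209 (SE), with a limma adjusted p of 0.0083. Traj53 held 2.88% and 2.79% in KO at 48 h, against 4.03% and 4.91% in WT at 24 h. Its log2 fold change was -0.65 with a limma adjusted p of 0.008. Traj57 held 2.94% and 3.52% in KO at 48 h, against 4.36% and 5.32% in WT at 24 h, a log2 fold change of -0.58 with a limma adjusted p of 0.0384. These 3 of the 4 segments from Traj58 to Traj53 were called lower. Traj58, the most 5' segment listed, was not: it held 2.62% and 1.95% in KO at 48 h, against 4.31% and 2.44% in WT at 24 h, and its limma adjusted p was 0.117. It was called with table type as a term, at a limma adjusted p of 0.04, so that all 4 were lower in that fit. The WT 24 h libraries differed most from each other there, and the KO values were close to those of WT at 48 h, 2.11% and 2.00%. Together the 4 segments took 11.8% and 11.9% in KO at 48 h, against 18.3% and 20.0% in WT at 24 h, which is 72.8% of the WT step.

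The window of 6 segments from Traj52 to Traj45, named for the Traj49 promoter, was lower by less as a group. Traj52 and Traj50 lie 5' of Traj49 itself. Traj48 held 4.37% and 4.62% in KO at 48 h, against 5.89% and 7.12% in WT at 24 h, with a log2 fold change of -0.53 and a limma adjusted p of 0.0168. Traj52 held 4.24% and 4.24% in KO at 48 h, against 5.61% and 6.56% in WT at 24 h, with a log2 fold change of -0.52 and a limma adjusted p of 0.0083. Traj52 and Traj48 were the 2 called of the 6 segments from Traj52 to Traj45. Traj49 itself held 5.03% and 5.91% in KO at 48 h, against 6.46% and 7.91% in WT at 24 h, and with a limma adjusted p of 0.0793 it was not called. Traj49 and Traj50 were also called lower with table type as a term, at limma adjusted p-values of 0.0181 and 0.0158. As a group the 6 took 24.2% and 24.3% in KO at 48 h, against 29.5% and 32.4% in WT at 24 h, or 44.1% of the WT step. The 5 lower calls rest on WT 24 h replicate 2: without that library their log2 fold changes were between -0.68 and -0.39, and each had an adjusted p over 0.05. Traj57 and Traj48 were also lost without either KO 48 h library, at log2 fold changes of -0.45 and -0.71 for Traj57 and -0.49 and -0.57 for Traj48 without replicate 1 and replicate 2.

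Around Traj42, at the border of the 5' and middle windows, the segments matched most closely between the groups. Traj42 held 4.91% and 5.16% in KO at 48 h, against 4.86% and 5.23% in WT at 24 h. Its log2 fold change was -0.00 and its 95% interval reached no farther than 0.25 from 0, the narrowest bound of the 43. Traj45, Traj43 and Traj40 came next, with bounds of 0.42, 0.44 and 0.48. In WT at 48 h Traj42 held 3.25% and 3.11%, outside the range of the other 4 libraries. For 23 of the 43 segments the whole interval lay within a log2 fold change of 1 in either direction, and 7 of these were nevertheless called different.

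The calls of the middle window were led by Traj23, which held 1.16% and 1.35% in KO at 48 h, against 0.594% and 0.496% in WT at 24 h. The libraries of the groups did not overlap, and the log2 fold change was 1.19 ± 0.144 (SE), with a limma adjusted p of 5.29e-04. Traj35 was at the other end of the calls, with 1.49% and 1.49% in KO at 48 h, against 1.21% and 1.15% in WT at 24 h. Its log2 fold change of 0.34 had a limma adjusted p of 0.0429, and it was lost without any of the 4 libraries, at log2 fold changes of 0.30 to 0.37, and on the centred scale, at 0.03. Traj33, the segment used in the chain of mucosal-associated invariant T (MAIT) cells, held 2.33% and 2.17% in KO at 48 h, against 1.98% and 1.69% in WT at 24 h. It was not called, at a log2 fold change of 0.30 and a limma adjusted p of 0.112, and at -0.01 on the centred scale. The whole middle window took 43.1% and 43.0% in KO at 48 h, against 35.6% and 31.8% in WT at 24 h. WT at 48 h had 43.2% and 45.1%, and the KO sum stood at 89.7% of the WT step. That sum joins segments that differed in how they stood to WT at 48 h. Traj39, named after its values were seen, held 3.94% and 4.04% in KO at 48 h, against 3.07% and 3.04% in WT at 24 h. WT at 48 h held 2.65% and 2.60%. It was called higher than WT at 24 h, at a log2 fold change of 0.38 with a limma adjusted p of 0.0263. Like Traj35 it was lost without any of the 4 libraries, at log2 fold changes of 0.36 to 0.40. Traj40, which was not called, held 5.12% and 5.31% in KO at 48 h, against 4.67% and 4.41% in WT at 24 h, and 3.54% and 4.08% in WT at 48 h. At both segments KO at 48 h was above WT at either time. In a split of the window made after these values were seen, the 9 segments from Traj40 to Traj31 took 31.9% and 32.9% in KO at 48 h, against 28.1% and 26.1% in WT at 24 h, and 27.1% and 30.1% in WT at 48 h. The 7 segments from Traj30 to Traj22 took 11.2% and 10.2% in KO at 48 h, against 7.52% and 5.78% in WT at 24 h, and 16.0% and 15.0% in WT at 48 h. The sum of the first 9 thus lay above both WT times in KO at 48 h, though not every segment did. Traj37 held 3.58% and 3.54% in KO at 48 h, against 4.11% and 4.30% in WT at 24 h. The sum of the other 7 stood at 45.4% of the WT step.

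Farther 3', the segments from Traj18 to Traj11 held 5 of the 6 largest increases. Traj15 held 1.43% and 1.59% in KO at 48 h, against 0.68% and 0.414% in WT at 24 h, a log2 fold change of 1.49 ± 0.203 (SE) with a limma adjusted p of 7.02e-04. Traj11 held 0.282% and 0.281% in KO at 48 h, against 0.125% and 0.108% in WT at 24 h, a log2 fold change of 1.21 with a limma adjusted p of 0.00179. Both KO libraries exceeded both WT 24 h libraries at each segment, and both stayed under the WT 48 h libraries, which held 2.76% and 2.69% of Traj15 and 1.05% and 0.719% of Traj11. Traj13 held 0.756% and 0.888% in KO at 48 h, against 0.428% and 0.285% in WT at 24 h, a log2 fold change of 1.21 with a limma adjusted p of 0.00779. Traj17 held 1.44% and 1.32% in KO at 48 h, against 0.753% and 0.656% in WT at 24 h, a log2 fold change of 0.96 with a limma adjusted p of 0.00145. These segments also had no overlap between the groups. Traj18, the segment of the invariant NKT cell chain, held 1.75% and 1.64% in KO at 48 h, against 1.05% and 0.558% in WT at 24 h. Its log2 fold change was 1.14 with a limma adjusted p of 0.0083. Without WT 24 h replicate 2, Traj18 had a log2 fold change of 0.69 and Traj13 one of 0.92, with limma adjusted p-values of 0.0596 and 0.0595.

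Leaving out each of the 4 libraries in turn kept 8 of the 21 calls each time, all of them higher: Traj26, Traj23, Traj22, Traj17, Traj15, Traj12, Traj11 and Traj9. Without WT 24 h replicate 2, 13 of the 21 were lost, and without WT 24 h replicate 1, 3 were lost. The losses were 6 without KO 48 h replicate 1 and 7 without KO 48 h replicate 2.

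At the 3' end of the array KO at 48 h lay near WT at 24 h. Traj2 held 0.142% and 0.185% in KO at 48 h, against 0.194% and 0.211% in WT at 24 h. WT at 48 h had 1.15% and 0.911%. Both KO libraries were below both WT 24 h libraries, at a log2 fold change of -0.31 with a limma adjusted p of 0.163, whereas WT at 48 h had 5.08 times the mean share of WT at 24 h. Traj5 held 0.204% and 0.126% in KO at 48 h, against 0.165% and 0.169% in WT at 24 h, and 0.791% and 0.547% in WT at 48 h. Traj4 held 0.356% and 0.532% in KO at 48 h, against 0.322% and 0.393% in WT at 24 h, and 1.62% and 1.25% in WT at 48 h. Traj5 and Traj4, named after their values were seen, had overlapping values in KO at 48 h and WT at 24 h. Of the 7 segments from Traj11 to Traj2, Traj11, Traj9 and Traj6 were called higher and the other 4 were not called. The 7 together took 2.37% and 2.51% in KO at 48 h, against 1.82% and 1.72% in WT at 24 h, and 9.69% and 7.13% in WT at 48 h. That is 10.1% of the WT step, while the whole 3' window of 14 segments stood at 25.5% of its step, with 10.5% and 10.5% in KO at 48 h and 6.71% and 4.97% in WT at 24 h.

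Segment by segment, 32 of the 43 Traj shares lay between those of WT at 24 h and WT at 48 h in the replicate 1 libraries, and 32 did in the replicate 2 libraries. The share was nearer to WT at 24 h for 31 segments in replicate 1 and for 23 in replicate 2. Over the whole J profile, the mean Bray-Curtis distance, which is 0 for identical profiles and 1 for profiles with nothing shared, was 0.157 from KO at 48 h to WT at 24 h, with a range of 0.131 to 0.184 over the 4 library pairs. It was 0.192 to WT at 48 h, with a range of 0.162 to 0.224, and 0.307 to KO at 24 h. The distance was 0.0503 within KO at 48 h and 0.0947 within WT at 24 h. The ranges to WT at 24 h and to WT at 48 h overlapped, and the nearer group depended on the tables set side by side. Replicate 1 of KO at 48 h was 0.131 from its WT 24 h counterpart and 0.211 from the WT 48 h one, while replicate 2 was 0.178 and 0.170 from them. These distances share libraries and are a description.

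On the V side no Trav segment was called with 1 mean per group: 0 of 80, or 0.0%, had a limma adjusted p under 0.05, and 6 had an unadjusted p under 0.05. The spread between the replicates of a group was larger there than the difference between groups. The median absolute log2 difference over the 80 segments was 1.06 between the KO 48 h replicates and 0.986 between the WT 24 h replicates. Between KO at 48 h and WT at 24 h it was 0.48 for the replicate 1 tables and 0.49 for the replicate 2 tables. Trav15-2-dv6-2, a segment shared with the Tcrd locus, shows the size of this split: it held 0.669% and 11.7% in KO at 48 h, against 1.08% and 9.81% in WT at 24 h. The replicate 2 tables were high in both groups, and the replicate 1 tables were low. Whether the table type comes from library preparation, counting or the mice was not tested.

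With table type as a term in the fit, added after the totals were seen, 17 Trav segments were higher in KO at 48 h, or 21.2% of the 80, and 9 were lower, or 11.2%. The distal zone of 27 segments, farthest from the J array, had 7 higher and 1 lower, and the central zone of 27 had 9 higher and none lower. The proximal zone of 26 had 1 higher and 8 lower. The median log2 fold changes of the 3 zones, from distal to proximal, were 0.40, 0.34 and -0.24, against 0.18 over all 80. On the centred scale they were 0.17, 0.11 and -0.47, and -0.05 over all 80.

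**Figure D3:**
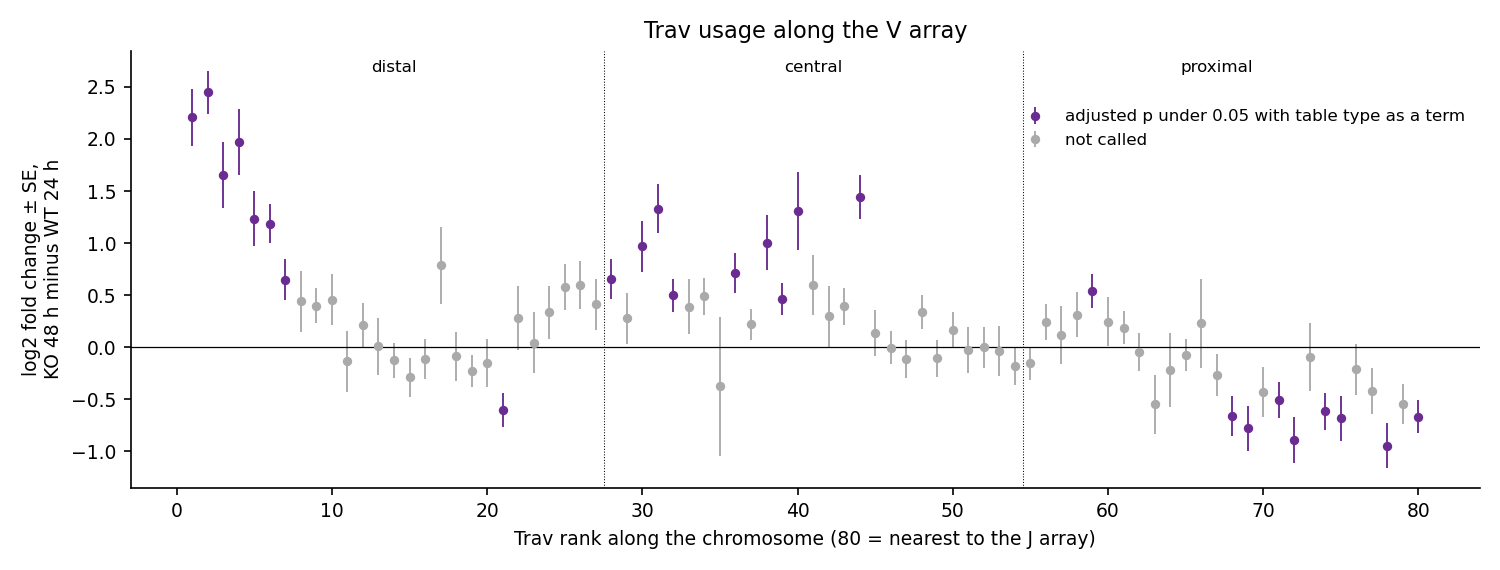
Log2 fold change of each Trav share, KO at 48 h minus WT at 24 h (y axis, with SE from the limma fit with table type as a term), by rank along the chromosome (x axis, 80 nearest to the J array); called segments are purple, and dotted lines part the zones. The 7 most distal segments are all called higher, up to 2.45 for Trav2, and 8 called segments in the proximal zone are lower, down to -0.94 for Trav19.

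The distal calls were led by the segments at the far end of the array. Trav1, at chr14:52427928-52428876, held 0.333% and 0.163% in KO at 48 h, against 0.08% and 0.0208% in WT at 24 h. Trav2, at chr14:52567198-52568051, held 0.443% and 0.133% in KO at 48 h, against 0.0868% and 0.0125% in WT at 24 h. Within each table type the KO library was several times higher at both segments, by 4.16 and 7.83 times for Trav1 and by 5.10 and 10.6 times for Trav2. The shares of 0.0208% and 0.0125% come from a table whose smallest pair share above 0 was 0.00403%. They rest on few pairs, so the ratios of 7.83 and 10.6 are rough. With table type as a term, the log2 fold change was 2.21 ± 0.273 (SE) for Trav1, at a limma adjusted p of 6.19e-04, and 2.45 ± 0.209 (SE) for Trav2, at 1.35e-04. Without that term the limma adjusted p-values were 0.349 and 0.53. Trav2 is not listed in KO 24 h replicate 2, and it was entered as missing there in the fit. WT at 48 h stood higher still, with 1.31% and 0.518% of Trav1.

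Trav3-1 held 0.688% and 1.89% in KO at 48 h, against 0.193% and 0.65% in WT at 24 h, a log2 fold change of 1.66 with a limma adjusted p of 0.00519 with table type as a term. Trav6-2 held 0.457% and 0.251% in KO at 48 h, against 0.191% and 0.107% in WT at 24 h, a log2 fold change of 1.19 with a limma adjusted p of 0.00198. The higher calls of the distal zone were the 7 most distal segments listed in all 4 tables, from Trav1 to Trav7d-2. In the central zone Trav9d-4 held 0.56% and 0.378% in KO at 48 h, against 0.172% and 0.182% in WT at 24 h, with no overlap and a log2 fold change of 1.33 at a limma adjusted p of 0.00329. Trav3d-3 held 1.56% and 1.22% in KO at 48 h, against 0.76% and 0.647% in WT at 24 h. Trav7-2 held 0.104% and 0.111% in KO at 48 h, against 0.055% and 0.025% in WT at 24 h. Neither group pair overlapped at these central segments, and Trav3d-3 and Trav7-2 had limma adjusted p-values of 0.0191 and 0.0293 with table type as a term.

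The proximal segments, which the first rearrangements use, held 8 of the 9 lower calls. Trav21-dv12, the segment nearest to the J array, held 2.37% and 0.895% in KO at 48 h, against 3.63% and 1.48% in WT at 24 h. Its log2 fold change was -0.67, with a limma adjusted p of 0.0161 with table type as a term. Trav19 held 1.23% and 0.503% in KO at 48 h, against 2.17% and 1.07% in WT at 24 h, with a log2 fold change of -0.94 and a limma adjusted p of 0.0143. The groups overlapped at both segments until tables of the same type were set side by side, where each KO library was below its WT counterpart. Trav17 held 1.47% and 1.21% in KO at 48 h, against 2.10% and 1.52% in WT at 24 h, and was not called in either fit. Leaving out each library in turn with table type as a term kept 7 of the 26 calls each time, all higher: Trav1, Trav2, Trav3-1, Trav6-1, Trav6-2, Trav9d-4 and Trav6-4. The number called was 12 without WT 24 h replicate 1, 7 without WT 24 h replicate 2, 12 without KO 48 h replicate 1 and 9 without KO 48 h replicate 2, and all 9 lower calls were lost without WT 24 h replicate 2. Trav6-1 and Trav6-4 are outside the rule for named segments and were added after their values were seen.

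Likeness on the V side was resolved for fewer segments. With 1 mean per group, the whole 95% interval lay within a log2 fold change of 1 in either direction for 10 of 80, and with table type as a term it did for 49, of which 5 were called different. Trav7-5, a central segment, had the narrowest bound in the first fit, at 0.70, and held 2.15% and 2.64% in KO at 48 h, against 2.01% and 2.81% in WT at 24 h. Trav8-1 had the narrowest bound in the second, at 0.36, and held 1.84% and 0.658% in KO at 48 h, against 1.67% and 0.731% in WT at 24 h.

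Set beside both WT times, 55 of the 80 Trav shares in KO at 48 h lay between those of WT at 24 h and WT at 48 h in the replicate 1 tables, and 42 did in the replicate 2 tables. The Bray-Curtis distance of KO 48 h replicate 1 over the V profile was 0.133 to WT at 24 h, 0.131 to WT at 48 h and 0.183 to KO at 24 h, each for the replicate 1 table. That of replicate 2 was 0.161 to WT at 24 h, 0.195 to WT at 48 h and 0.135 to KO at 24 h. Of these 3 the nearest V profile was WT at 48 h for replicate 1, by a small margin, and KO at 24 h for replicate 2. All of these were smaller than the distance between the replicates of a group, which was 0.354 in KO at 48 h and 0.326 in WT at 24 h.

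By zone, the distal segments took 18.9% and 16.4% in KO at 48 h, against 15.6% and 14.3% in WT at 24 h. The central segments took 34.6% and 28.8% in KO at 48 h, against 29.6% and 23.3% in WT at 24 h, and these ranges overlapped. The proximal segments took 46.5% and 54.8% in KO at 48 h, against 54.8% and 62.4% in WT at 24 h. No group overlap was seen in the distal zone, and in the proximal zone the groups touched. Of the WT step from 24 h to 48 h, KO at 48 h stood at 31.4% for the distal zone, 53.6% for the central and 43.2% for the proximal. Segments with the suffix d, the duplicated cluster of the locus, took 25.9% and 24.3% in KO at 48 h, against 20.9% and 20.6% in WT at 24 h. These shares did not overlap, though reads of near-identical copies could have been split between them by the authors' assignment, and the strain 129 locus may differ from the reference in its Trav segments.

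Pairing of V with J was more ordered in KO at 48 h than in WT at 24 h and less so than in WT at 48 h. The usage-weighted correlation of Trav rank with Traj number over all 3440 pairs, positive where distal Trav segments meet 3' Traj segments, was 0.17 and 0.191 in KO at 48 h, against 0.115 and 0.0889 in WT at 24 h. It was 0.272 and 0.263 in WT at 48 h, and 0.075 and 0.0322 in KO at 24 h. The pairs of a library share that library, and the value is a description. The difference between KO at 48 h and WT at 24 h was 0.0788, or 47.6% of the WT step, with 35.1% between the replicate 1 tables and 59.0% between the replicate 2 tables. When pairs at or under 0.02% were left out, the difference was 0.13.

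The blocks at the ends of the arrays give examples of this order. The observed share of distal Trav with 5' Traj, over the product of their separate shares, was 0.90 and 0.835 in KO at 48 h, against 1.00 and 1.00 in WT at 24 h. A ratio of 1 is what independent joining gives, and both KO libraries lay under it. For proximal Trav with 5' Traj the ratio was 1.17 and 1.16 in KO at 48 h, against 1.07 and 1.03 in WT at 24 h. For proximal Trav with 3' Traj it was 0.774 and 0.748 in KO at 48 h, against 0.849 and 0.877 in WT at 24 h. For distal Trav with 3' Traj it was 1.15 and 1.20 in KO at 48 h, against 1.08 and 1.11 in WT at 24 h. The ratios of these blocks did not overlap between the groups. Among all blocks of a zone with a window, only central Trav with middle Traj and with 3' Traj overlapped. Blocks of a zone or window share its total, so ratios away from the ends are not independent of those at the ends. In WT at 48 h the ratios for distal with 5' were 0.691 and 0.641.

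The shift on the J side was present within each V zone. Among distal Trav segments the mean J number was 37.3 and 36.9 in KO at 48 h, against 41.7 and 43.0 in WT at 24 h, and among central segments it was 36.3 and 35.6, against 39.8 and 41.5. Among proximal segments it was 40.7 and 40.5 in KO at 48 h, against 42.8 and 43.6 in WT at 24 h. With the V usage of every library set to the mean of the 4 libraries, the mean J number was 39.0 and 38.9 in KO at 48 h, against 41.4 and 42.8 in WT at 24 h. The difference at common V usage was -3.12, beside -3.85 at each library's own V usage. With J usage held common, the mean V rank was 49.1 and 51.6 in KO at 48 h, against 52.3 and 54.4 in WT at 24 h.

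The mean J number was also fitted for each Trav segment with a mean share of at least 0.5%, of which there were 57. By limma it was lower in KO at 48 h for 23, or 40.4%, and higher for 0, or 0.0%, with a median difference of -3.48. Of the segments tested, 7 of 17 in the distal zone were lower, 12 of 19 in the central zone and 4 of 21 in the proximal zone. The segments described here were named after their values were seen. Trav12d-2, a distal segment at chr14:52915799-52916426, paired with Traj segments of mean number 34.9 and 34.2 in KO at 48 h, against 42.6 and 45.6 in WT at 24 h. That difference of -9.57 had a limma adjusted p of 0.00282. Trav15d-2-dv6d-2, a segment also used by Tcrd, had 34.0 and 33.2 in KO at 48 h, against 40.1 and 39.6 in WT at 24 h, a difference of -6.26 with a limma adjusted p of 0.00282. It passed the 0.5% minimum only through the tables that sum to near 2. Its share was 0.188% and 3.12% in KO at 48 h, against 0.194% and 2.07% in WT at 24 h. These 2 calls held without each of the 4 libraries in turn, whereas the number called was 25 without WT 24 h replicate 1, 2 without WT 24 h replicate 2, 14 without KO 48 h replicate 1 and 4 without KO 48 h replicate 2.

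**Figure D4:**
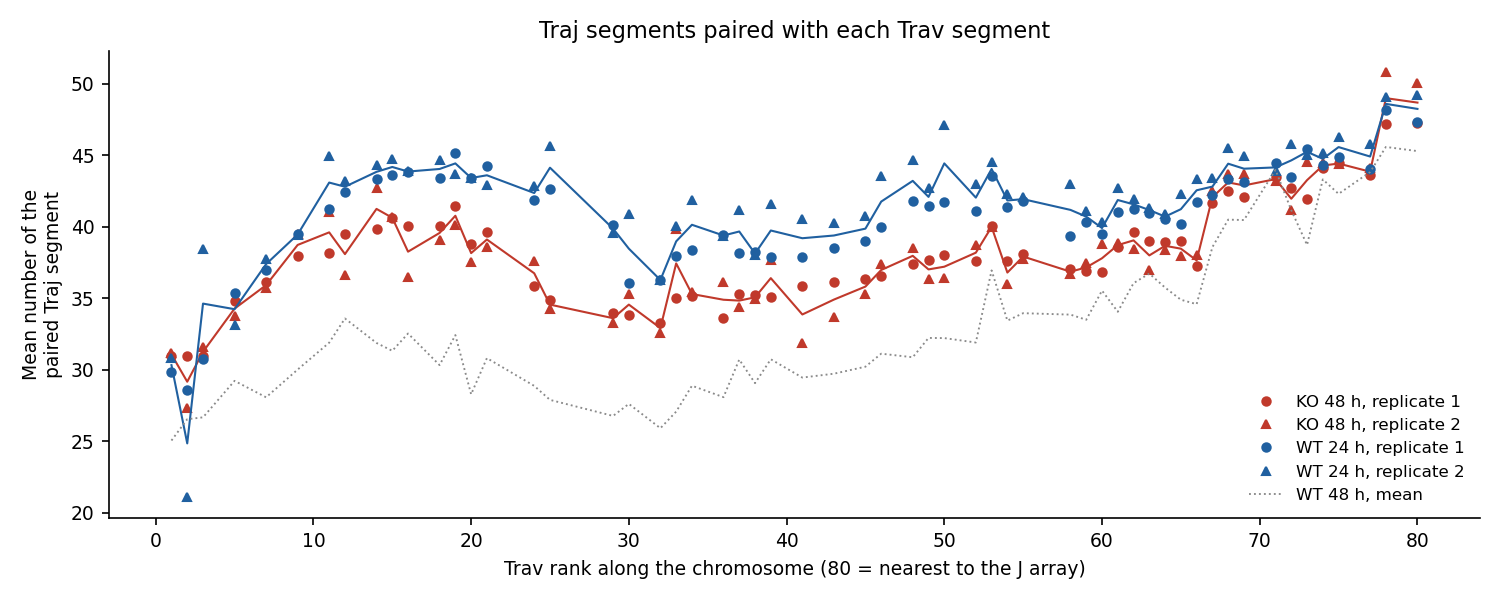
Usage-weighted mean Traj number among the pairs of each Trav segment with a mean share of at least 0.5% (y axis), by Trav rank (x axis, 80 nearest to the J array), with points for libraries, lines for group means and a dotted line for WT at 48 h. KO at 48 h (red) lies below WT at 24 h (blue) across the central zone, with a difference of -7.23 at Trav6-6, and the groups meet at Trav21-dv12, the most proximal segment.

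At the ends of the V array no such difference was called. Trav1 paired with Traj segments of mean number 31.0 and 31.2 in KO at 48 h, against 29.8 and 30.9 in WT at 24 h. Trav21-dv12 had 47.3 and 50.1 in KO at 48 h, against 47.3 and 49.2 in WT at 24 h. The differences were 0.75 ± 1.17 and 0.44 ± 1.24 (SE), with limma adjusted p-values of 0.595 and 0.758. Trav1 passed the 0.5% minimum through other groups and held at most 0.333% in KO at 48 h and 0.08% in WT at 24 h, so its mean J number rests on few pairs there. With table type as a term, 34 segments were lower, or 59.6% of the 57, and 1 was higher, or 1.75%. The higher one was Trav2, whose share in WT 24 h replicate 2 was 0.0125% in a table whose smallest pair share above 0 was 0.00403%, so no difference is read from it.

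No single pair of the 3440 was called, which is 0.0%. The smallest limma adjusted p was 0.47. An unadjusted p under 0.05 was found for 290 pairs, or 8.43%, 224 of them higher in KO at 48 h and 66 lower. The pairs named below are a ranking by unadjusted p and not calls. With table type as a term none was called either, 585 had an unadjusted p under 0.05 and the smallest limma adjusted p was 0.129. The pair with the smallest unadjusted p among the higher ones was Trav12-2-Traj9, at 0.0213% and 0.0221% in KO at 48 h, against 0.00258% and 0 in WT at 24 h. The next 3 joined Trav3-1, the third most distal segment, to Traj15, Traj39 and Traj18, and Trav3-1-Traj39 held 0.0397% and 0.111% in KO at 48 h, against 0.0086% and 0.00424% in WT at 24 h. Among the lower ones 3 of the first 4 held Traj56: Trav13-1-Traj56 held 0.0862% and 0.0444% in KO at 48 h, against 0.187% and 0.222% in WT at 24 h. Trav16-Traj56 and Trav12d-2-Traj56 were the others, beside Trav4-4-dv10-Traj38. Among the 50 most used pairs, 22 were shared between the replicate 1 libraries of KO at 48 h and WT at 24 h, and 34 between the replicate 2 libraries. With WT at 48 h, KO at 48 h shared 30 between the replicate 1 libraries and 26 between the replicate 2 libraries. The Bray-Curtis distance over all pairs was smaller to WT at 24 h than to WT at 48 h in both replicates. For KO 48 h replicate 1 it was 0.191 and 0.238, to the replicate 1 tables. For replicate 2 it was 0.329 and 0.389, to the replicate 2 tables. Between replicates it was 0.424 within KO at 48 h and 0.383 within WT at 24 h.

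The CD3e-negative gate removes cells with a receptor on their surface, such as invariant NKT, MAIT and gamma-delta T cells, and the marker pairs of such cells held small shares. Trav11-Traj18, the chain of invariant NKT cells, held 0.0346% and 0 in KO at 48 h, against 0.0189% and 0 in WT at 24 h. Trav1-Traj33, the chain of MAIT cells, held 0.0128% and 0 in KO at 48 h, against 0.0043% and 0 in WT at 24 h. Each was listed at 0 in the replicate 2 table of both groups. The product of the separate Trav and Traj shares in the replicate 1 tables was 0.0105% in KO at 48 h and 0.00501% in WT at 24 h for the first pair, and 0.00775% and 0.00158% for the second. All 4 observed shares in the replicate 1 tables were above their product. In the replicate 2 tables the product was 0.00121% in KO at 48 h and 0.000551% in WT at 24 h for the first pair. It was 0.00353% and 0.00035% for the second, so the shares of 0 lay below it. How often other pairs lie above their product is not given, so no excess of these chains is read from this. The 10 Trav segments whose names mark use in Tcrd as well, which gamma-delta T cells can also use, took 13.3% and 25.5% in KO at 48 h, against 16.3% and 23.7% in WT at 24 h, and these ranges overlapped.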

How the data were processed

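Tcra transcripts were amplified by template-switch RACE with a Trac primer, per the labels' protocols. The deposited tables give the fraction of the repertoire held by each Trav-Traj pair, per the file headers; the sources used here give neither the aligner, the build, the annotation and the filters nor whether reads, molecules or clonotypes were counted. Fractions were rescaled to percent over 80 shared Trav segments and summed per segment. Of these, 78 matched GENCODE M21 (GRCm38); Trav9-3 and Trav13-5 were placed by their row in the tables. Up to 7 blank rows per table named no segment and were left out, as were 5 Trav segments missing from some of the 4 tables.

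limma 3.58.1 in R 4.3.3 was fitted to log2(percent + 0.01) of all 12 libraries with 1 mean per group, and to the mean J number of each Trav segment on its own scale. The spread behind the p-values and intervals was thus shared by all 6 groups, steady state included. Over the V profile, the Bray-Curtis distance between steady-state replicates was 0.0587 in WT and 0.0533 in KO. That is less than the 0.354 within KO at 48 h and the 0.326 within WT at 24 h. Adjustment (Benjamini-Hochberg, 0.05) ran over all features of a table. The log2(percent + 0.01) scale understates changes of low shares. The fit was run on simulated data with independent noise and no difference between table types. That run does not bear on the split of the tables. Alternatives were pseudocounts of 0.001 and 0.1, a filter on low shares, centred libraries, totals over all rows, a fit of the 4 libraries alone, the replicate number as a block, table type as a term, and leaving out libraries.

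Named Traj segments were the 6 largest and 6 smallest log2 fold changes among those called, plus Traj58, Traj57, Traj56, Traj49, Traj33, Traj18 and Traj2. Named Trav segments were the 6 with the smallest unadjusted p, plus the 3 most distal and 3 most proximal with a mean share of at least 0.5%. Named pairs were the 4 with the smallest unadjusted p in each direction and the 2 marker pairs. The members and lists were chosen with earlier results of these data known.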

Additional observations from a re-analysis of the deposited data

Results flagged for a closer look

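Some Trav segments listed in only part of the tables, and therefore outside the comparisons, were above every WT library. Trav18 held 0.0303% in KO 48 h replicate 1, against 0.0205% in the highest WT library, and is listed in 5 of the 12 tables. Trav7-6 held 0.0401% in KO 48 h replicate 1, against 0.0232% in the highest WT library, and is listed in 4 tables. Other KO libraries were above the WT libraries as well: Trav18 held 0.0941% in KO 24 h replicate 2 and 0.0254% in the steady-state KO replicate 1, and Trav7-6 held 0.0415% in that steady-state library. Neither is listed in a WT 24 h table or in KO 48 h replicate 2, so KO at 48 h and WT at 24 h could not be compared at either.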

How the results depend on the processing

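The 2 libraries of each group and the split of the tables into totals near 1 and near 2 limit these results. A fit of only the 4 libraries made 13 Traj calls, beside 21. Leaving out each library in turn gave 9 to 21 Traj calls, 0 to 0 Trav calls, 0 to 1 pair calls and 2 to 25 calls of mean J number per Trav; with table type as a term, Trav calls ranged from 7 to 12. The mean J difference then ranged from -4.49 to -3.22, the V rank difference from -5.29 to -2.80 and the V-J correlation difference from 0.0658 to 0.0918. An alternative added after the totals were seen, with table type as a term, gave 26 Trav calls and 35 calls of mean J number per Trav. Another, without the 4 tables that sum to near 2, left 1 library in each compared group, so its calls are not given. Without pairs at or under 0.02%, the V-J correlation difference was 0.13. The labels do not say that a replicate number marks a shared batch; with the replicate number as a block there were 22 Traj, 0 Trav, 0 pair and 25 mean J calls. Deviations of same-numbered libraries correlated at 0.45 over Traj and 0.89 over Trav segments. The direction of Traj33 reversed on the centred scale (-0.0072). Leaving out single libraries reversed 3 others: Trav21-dv12 ranged from -1.36 to 0.030 and was positive without KO 48 h replicate 2, Trav11-Traj18 ranged from -0.77 to 1.39 and was negative without KO 48 h replicate 1 and, at -0.45, without WT 24 h replicate 2, and Trav1-Traj33 ranged from -0.26 to 0.93 and was negative without KO 48 h replicate 1. None of these 4 was called with 1 mean per group; with table type as a term Trav21-dv12 was called lower and ranged from -0.78 to -0.55 without each library. The cause was not tested. Of the values recomputed for named Traj segments, 174 of 208 kept their direction and their side of the threshold, as did 114 of 130 for Trav segments and 126 of 129 for pairs. No named Trav segment or pair was called with 1 mean per group, so for them keeping their side of the threshold meant staying uncalled. The unknown depth of the tables limits what can be said of pairs listed at 0.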
